A study of Mus musculus with 8 samples.

Results

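The collagen chain genes of the mouse heart were examined across 2 genotypes and 2 treatments. A gene was taken as a collagen chain gene where its symbol was Col, a type number, the letter a and a chain number, as in Col1a1, and where a probe set of the array was annotated with that symbol alone. This gave 44 genes of the 19938 genes tested: 11 of the fibrillar class, 6 of the basement membrane class (type IV), 9 of the FACIT class (fibril-associated collagens with interrupted triple helices) and 18 of other types. Each gene was read by 1 probe set, and for Col6a5 and Col6a6, which had 2, the one with the higher mean over the arrays was taken. By their mean over the arrays, 40 of the 44 lay above the lowest 40% of genes and 4 (Col19a1, Col4a6, Col10a1 and Col6a4) below.

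RNA came from hearts of 9-week-old mice of the C57Bl6 strain. The 4 groups were homozygous Gata4 S105A mutants given PE (mice 7 and 8), the same mutants untreated (mice 5 and 6), wild-type (WT) mice given PE (mice 3 and 4) and WT mice untreated (mice 1 and 2), with 1 array per mouse. S105A puts an alanine in place of a serine of GATA4, a DNA-binding regulator of cardiac genes. An osmotic pump delivered PE subcutaneously over 5 days, at a daily dose of 100 mg per kg. The labels spell PE out as pseudoephedrine, and whether that is the drug meant cannot be settled from them. The untreated mice are described by the protocol as given saline. The tissue field names the ventricle and the titles the whole heart. Of 5 atrial markers, Sln, Bmp10 and Myl7 read at most 6.02 in any array, below the level of 6.18 that bounds the lowest 40% of genes, while Nr2f2 at 7.46 to 7.69 and Myl4 at 8.02 to 8.92 read above it. The 10 cardiomyocyte markers averaged 13.02 to 13.31 per array. No other limit of the mutant line as a model is given in the labels.

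Collagens are secreted proteins of the extracellular matrix whose chains wind around each other in a triple helix. Fibrillar collagens, above all types I and III in the heart, form the fibres that bear tension between muscle cells and are made chiefly by cardiac fibroblasts. Type IV collagen forms the sheet-like network of basement membranes around muscle cells and vessels, FACIT collagens sit on the surface of fibrils, and the remaining types build beaded filaments, hexagonal networks, anchoring fibrils or membrane-bound chains. Their deposition in the wall of a stressed heart is known as fibrosis. In RNA of whole tissue, more cells of a type and more RNA per cell cannot be told apart.

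Among the 8 arrays, 2 of the 4 PE arrays stood apart from the rest over all genes. On the first principal component, which held 69.51% of the variance, array 7 (S105A PE) scored 25.14 and array 3 (WT PE) 53.31. The remaining PE arrays, 8 and 4, scored -5.0 and -0.41, and untreated scores ranged over -20.79 to -16.08. Averaged PE differences are given with all arrays, and again without arrays 3 and 7 for the classes, the gene lists and the genes with the larger differences. The median level of the 44 collagen genes was 7.26 and 7.18 in S105A PE hearts and 7.05 in both S105A untreated hearts, and 7.54 and 7.15 in WT PE hearts against 7.00 and 6.99 in WT untreated hearts, on the log2 scale of the deposited values. All levels and differences in the text are on this scale, where a difference of 1 is a doubling.

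To show the sequence at the starts of genes described below, promoter windows were taken from RefSeq (mouse assembly GRCm38.p6), each covering 250 bases before and 50 after the annotated start. Of the 44 genes, 35 matched a window and 9 did not. The first 3 windows belong to the genes with the smallest p for the PE difference among those with a window, and the last 2 to the type IV pair, whose genes start 21 bases apart and run in opposite directions. They lie at chr1:45311288-45311587 (Col3a1, plus strand), chr6:4505368-4505667 (Col1a2, plus strand), chr16:57754688-57754987 (Col8a1, minus strand), chr8:11312777-11313076 (Col4a1, minus strand) and chr8:11312555-11312854 (Col4a2, plus strand). Each is written from 5′ to 3′ along its gene, with capitals marking any of 4 motifs or its reverse complement. These were the box CCAAT, the TATA element TATAAA, the GC box GGGCGG and the shorter word GATAA, which is the core of sites known to be bound by GATA factors. No match overlapped another in the 5 windows.
Col3a1: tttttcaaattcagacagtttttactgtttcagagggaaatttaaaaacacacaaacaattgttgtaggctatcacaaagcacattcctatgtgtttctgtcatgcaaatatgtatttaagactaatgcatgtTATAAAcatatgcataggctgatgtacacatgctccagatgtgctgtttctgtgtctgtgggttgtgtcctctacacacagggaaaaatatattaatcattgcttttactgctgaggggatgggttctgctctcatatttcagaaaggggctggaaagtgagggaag
Col1a2: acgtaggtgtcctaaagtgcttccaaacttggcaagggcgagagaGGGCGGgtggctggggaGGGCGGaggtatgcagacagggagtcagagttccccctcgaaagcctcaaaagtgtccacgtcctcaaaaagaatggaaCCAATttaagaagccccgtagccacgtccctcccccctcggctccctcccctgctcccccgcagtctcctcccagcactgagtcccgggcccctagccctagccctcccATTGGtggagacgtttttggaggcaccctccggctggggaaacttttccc
Col8a1: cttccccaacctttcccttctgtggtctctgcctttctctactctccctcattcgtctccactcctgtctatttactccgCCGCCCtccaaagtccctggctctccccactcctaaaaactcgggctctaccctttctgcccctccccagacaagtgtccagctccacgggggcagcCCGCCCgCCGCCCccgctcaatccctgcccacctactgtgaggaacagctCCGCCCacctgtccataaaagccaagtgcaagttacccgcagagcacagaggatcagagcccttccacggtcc
Col4a1: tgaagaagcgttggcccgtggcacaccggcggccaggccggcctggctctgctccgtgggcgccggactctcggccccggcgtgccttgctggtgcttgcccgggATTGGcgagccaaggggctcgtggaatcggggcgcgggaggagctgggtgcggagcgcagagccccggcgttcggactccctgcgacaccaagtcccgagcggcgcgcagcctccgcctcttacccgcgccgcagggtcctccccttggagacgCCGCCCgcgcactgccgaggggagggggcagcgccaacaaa
Col4a2: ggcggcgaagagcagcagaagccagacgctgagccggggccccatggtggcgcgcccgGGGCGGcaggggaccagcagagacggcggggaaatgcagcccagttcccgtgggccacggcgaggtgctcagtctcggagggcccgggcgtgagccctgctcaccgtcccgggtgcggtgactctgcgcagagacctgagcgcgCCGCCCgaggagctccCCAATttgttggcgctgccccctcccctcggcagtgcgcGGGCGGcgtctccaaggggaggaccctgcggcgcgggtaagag

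The Col3a1 window held 1 TATAAA, at bases -117 to -112, counted from the start as base 1, and none of the other motifs. The Col1a2 window held CCAAT at -109 to -105 and, on the other strand, at 1 to 5, beside GGGCGG at -205 to -200 and at -188 to -183. In the Col8a1 window GGGCGG occurred 4 times, each on the other strand. The Col4a1 and Col4a2 windows overlap over 78 bases, and the GGGCGG at 10 to 15 of Col4a1, on its other strand, is the same run of bases as the one at 8 to 13 of Col4a2. None of the 5 windows held GATAA. Over the 38 windows of collagen genes, CCAAT was present in 13, TATAAA in 5, GGGCGG in 23 and GATAA in 7, and over all 32851 windows the shares were 37.41%, 13.62%, 35.66% and 25.41%. A match is a run of letters in these windows and says nothing of binding.

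The comparison of PE with untreated hearts, averaged over the genotypes, asked which collagen chains differed with the stimulus. The 4 PE arrays lay above the 4 untreated arrays without overlap for 18 of the 44 genes, against 6.7% of all genes, and below them for 0, against 6.15% of all genes. Of the 44 genes, 37 had a positive difference, against 44% of all genes. No collagen gene passed an adjusted p of 0.05 in limma, a count that was 0.00502% over all genes. At an unadjusted limma p under 0.05, 20 were higher (9.31% of all genes) and 0 lower (7.44% of all genes). The median difference was 0.17 over the collagen genes and -0.02 over all genes; for the collagen genes it was 0.10 without array 3 and 0.08 without arrays 3 and 7. Without array 4, which leaves array 3 as the only WT PE array, the collagen median was 0.20. The smallest adjusted p of a collagen gene with all arrays was 0.275 in limma.

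**Figure D1:**
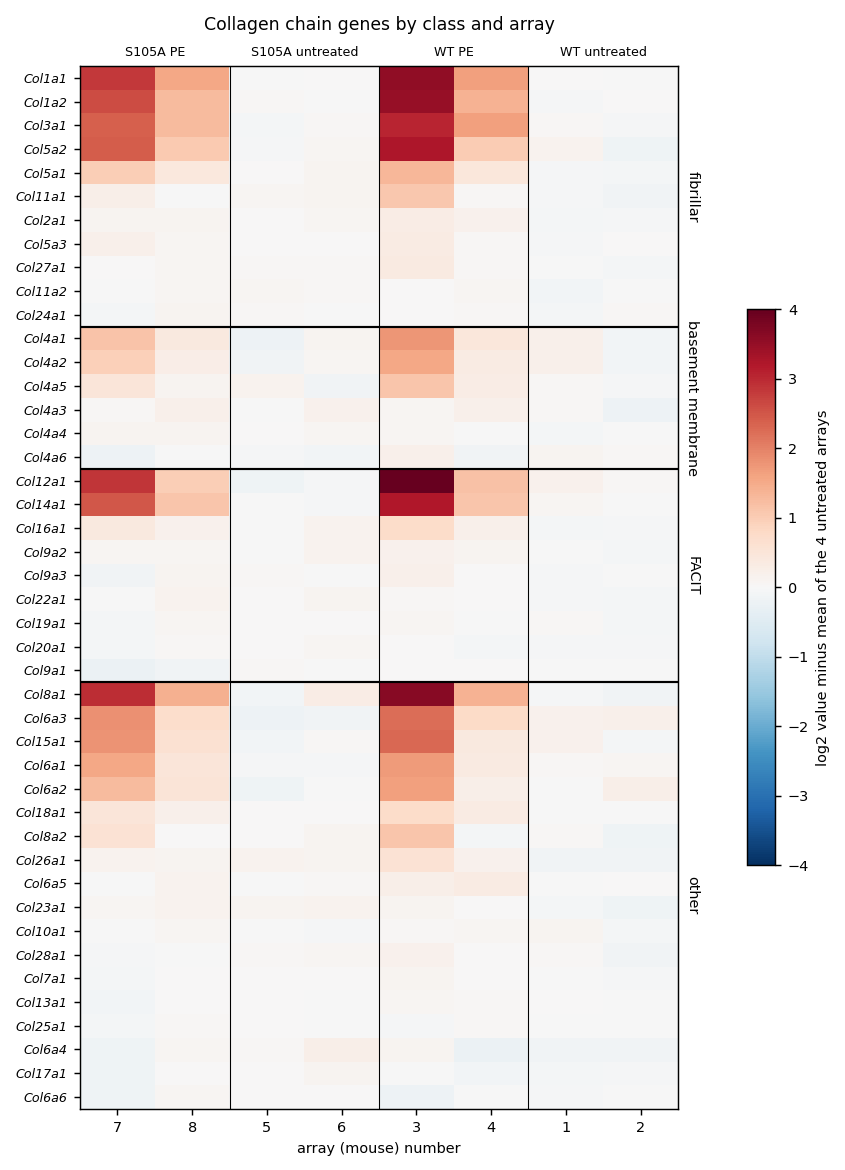
Each row is a collagen chain gene, sorted within its class by the averaged PE difference, and each column is 1 array; colour gives the log2 value minus the mean of the 4 untreated arrays. Arrays 3 and 7 hold the deepest red, arrays 4 and 8 are paler red in most of the same top rows, and the lower rows of each class are near white in all 8 arrays.

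Among the fibrillar genes, 7 of 11 lay higher in all PE arrays than in any untreated array, and all 11 had positive differences, with a median of 0.34. Type I collagen, the most abundant fibre-forming collagen of the body, is built from the products of Col1a1 and Col1a2. Col1a1 read 11.75 and 10.47 in S105A PE hearts and 8.91 and 8.96 in S105A untreated hearts, and 12.48 and 10.57 in WT PE hearts against 8.95 and 8.93 in WT untreated hearts. Col1a2 read 11.16 and 9.79 in S105A PE hearts and 8.58 and 8.53 in S105A untreated hearts, and 12.03 and 9.94 in WT PE hearts against 8.49 and 8.55 in WT untreated hearts. For both genes every PE array lay more than 1 log2 unit above every untreated array, and within each genotype the PE arrays differed from each other by more than the untreated arrays did. The averaged difference was 2.38 for Col1a1 (SE 0.45, 5.21-fold) and 2.20 for Col1a2 (SE 0.48, 4.58-fold), each with an adjusted p of 0.275 in limma.

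Col3a1 encodes the single chain of type III collagen, which forms thin fibres together with type I. It read 11.00 and 9.85 in S105A PE hearts and 8.53 and 8.64 in S105A untreated hearts, and 11.65 and 10.24 in WT PE hearts against 8.65 and 8.56 in WT untreated hearts. The groups did not overlap in either genotype, and the averaged difference of 2.09 (SE 0.36, 4.26-fold, limma adjusted p = 0.275) had the smallest unadjusted p of the 44. Type V collagen, from Col5a1 and Col5a2, co-assembles with type I and sets the start and width of its fibrils. Col5a2, which lies next to Col3a1 on chromosome 1, read 8.89 and 7.49 in S105A PE hearts and 6.41 and 6.52 in S105A untreated hearts, and 9.69 and 7.48 in WT PE hearts against 6.59 and 6.28 in WT untreated hearts, a difference of 1.93 (SE 0.51, 3.82-fold). Col5a1 read 8.48 and 7.92 in S105A PE hearts and 7.49 and 7.60 in S105A untreated hearts, and 8.82 and 7.93 in WT PE hearts against 7.45 and 7.41 in WT untreated hearts, a difference of 0.80 (SE 0.21, 1.74-fold). Neither type V gene had overlapping groups, and both had an adjusted p of 0.275 in limma.

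The other 6 fibrillar genes were closer to their untreated levels. Col2a1, the chain of the main cartilage collagen, and Col5a3, the third type V chain, also had no overlap, with differences of 0.17 (SE 0.06) and 0.16 (SE 0.08). Col11a1, a type XI chain of cartilage, read 6.89 and 6.65 in S105A PE hearts and 6.75 and 6.76 in S105A untreated hearts, and 7.74 and 6.72 in WT PE hearts against 6.62 and 6.52 in WT untreated hearts. Its averaged difference of 0.34 (SE 0.21, limma adjusted p = 0.416) came with 1 array, number 3, well above the other 7. Col27a1, Col11a2 and Col24a1 had differences of 0.13, 0.04 and 0.02, and Col24a1 was the lowest of its class.

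**Figure D2:**
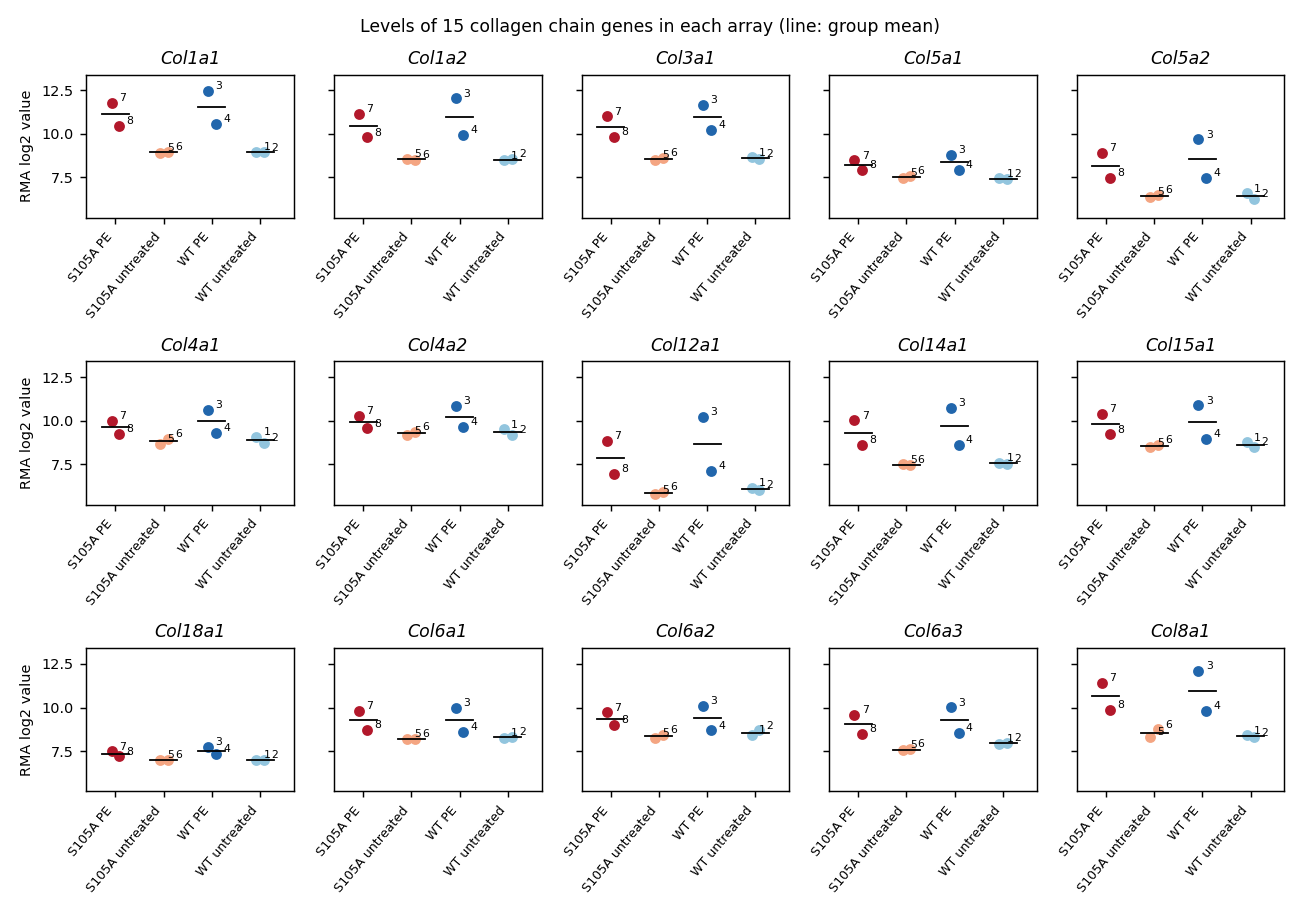
Dots give the log2 level of 15 collagen chain genes in each array, numbered by mouse, in the order S105A PE, S105A untreated, WT PE and WT untreated; lines are means of 2 arrays. In each panel array 7 lies above array 8 and array 3 above array 4, while the 2 arrays of an untreated group lie closer together than the 2 PE arrays of the same genotype.

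Of the 6 type IV genes of the basement membrane, 2 had all PE arrays above all untreated arrays, and the median difference was 0.32. Col4a1 and Col4a2 encode the chains of the type IV network found in nearly all basement membranes. Col4a1 read 10.00 and 9.26 in S105A PE hearts and 8.66 and 8.97 in S105A untreated hearts, and 10.61 and 9.31 in WT PE hearts against 9.06 and 8.74 in WT untreated hearts, a difference of 0.94 (SE 0.30, 1.92-fold, limma adjusted p = 0.281). Col4a2 read 10.26 and 9.57 in S105A PE hearts and 9.16 and 9.38 in S105A untreated hearts, and 10.85 and 9.63 in WT PE hearts against 9.50 and 9.20 in WT untreated hearts, a difference of 0.76 (SE 0.28, 1.70-fold, limma adjusted p = 0.287). For both, arrays 4 and 8 lay only slightly above the highest untreated array. Col4a5, which forms a further network with Col4a3 and Col4a4 in the kidney glomerulus, was 0.50 higher (SE 0.19), with array 8 at 6.94 below untreated array 5 at 6.96. Col4a3 and Col4a4 had differences of 0.14 and 0.07. Col4a6, which read at most 6.19 in any array, had the lowest value of the class, -0.04 (SE 0.09).

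The FACIT class was divided between a few genes with large differences and a majority near 0. Of its 9 genes, 3 had no overlap between PE and untreated arrays, and the median difference was 0.05. Col12a1, whose product binds the surface of type I fibrils in dense connective tissue, read 8.83 and 6.94 in S105A PE hearts and 5.78 and 5.91 in S105A untreated hearts, and 10.20 and 7.13 in WT PE hearts against 6.13 and 6.01 in WT untreated hearts. It had the widest gap between arrays of a group among the 44 genes, 3.07 between arrays 3 and 4. Its difference was 2.32 (SE 0.70, 4.98-fold, limma adjusted p = 0.277). Col14a1, a related fibril-surface collagen, read 10.02 and 8.63 in S105A PE hearts and 7.50 and 7.47 in S105A untreated hearts, and 10.72 and 8.64 in WT PE hearts against 7.60 and 7.52 in WT untreated hearts. Arrays 8 and 4 stood at nearly the same level, above all untreated arrays, and the averaged difference was 1.98 (SE 0.48, 3.95-fold, limma adjusted p = 0.275). Col16a1 was 0.37 higher (SE 0.13), with the PE arrays at 7.01 to 7.56 and the untreated arrays at 6.75 to 6.97. The 3 type IX genes, whose products coat cartilage fibrils, had differences of 0.10 (Col9a2), 0.05 (Col9a3) and -0.09 (Col9a1, SE 0.06), and Col22a1, Col19a1 and Col20a1 lay between -0.02 and 0.04.

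Of the 18 genes of other types, 6 had no overlap and the median difference was 0.13. Col8a1 encodes a chain of type VIII collagen, a short-chain collagen of vessel walls. It read 11.41 and 9.87 in S105A PE hearts and 8.34 and 8.75 in S105A untreated hearts, and 12.10 and 9.83 in WT PE hearts against 8.41 and 8.30 in WT untreated hearts, a difference of 2.36 (SE 0.54, 5.12-fold, limma adjusted p = 0.275). Its partner Col8a2 read 6.94 and 6.40 in S105A PE hearts and 6.39 and 6.47 in S105A untreated hearts, and 7.49 and 6.29 in WT PE hearts against 6.41 and 6.21 in WT untreated hearts. For Col8a2 arrays 8 and 4 lay within the untreated range, and the averaged difference was 0.41 (SE 0.26, limma adjusted p = 0.437).

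Type VI collagen forms beaded microfilaments near cell surfaces from the products of Col6a1, Col6a2 and Col6a3. Col6a3 read 9.60 and 8.49 in S105A PE hearts and 7.55 and 7.62 in S105A untreated hearts, and 10.01 and 8.54 in WT PE hearts against 7.94 and 7.97 in WT untreated hearts, a difference of 1.39 (SE 0.36, 2.62-fold, limma adjusted p = 0.275). Col6a1 read 9.81 and 8.72 in S105A PE hearts and 8.20 and 8.19 in S105A untreated hearts, and 9.96 and 8.60 in WT PE hearts against 8.29 and 8.32 in WT untreated hearts, a difference of 1.03 (SE 0.34, 2.04-fold). Col6a2, its neighbour on chromosome 10, read 9.73 and 8.99 in S105A PE hearts and 8.28 and 8.45 in S105A untreated hearts, and 10.12 and 8.69 in WT PE hearts against 8.44 and 8.69 in WT untreated hearts, a difference of 0.92 (SE 0.32, 1.89-fold). The PE arrays of all 3 genes lay above the untreated arrays, for Col6a2 with array 4 barely above array 2. The alternative type VI chains Col6a4, Col6a5 and Col6a6, which lie side by side on chromosome 9, had differences of -0.06, 0.17 and -0.07, and Col6a6 was the lowest of the class (SE 0.08).

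Col15a1 and Col18a1 encode basement-membrane-zone collagens that carry glycosaminoglycan side chains. Col15a1 read 10.40 and 9.22 in S105A PE hearts and 8.48 and 8.63 in S105A untreated hearts, and 10.88 and 8.97 in WT PE hearts against 8.76 and 8.50 in WT untreated hearts, a difference of 1.27 (SE 0.44, 2.42-fold, limma adjusted p = 0.283). Col18a1 read 7.49 and 7.20 in S105A PE hearts and 7.01 and 7.02 in S105A untreated hearts, and 7.74 and 7.34 in WT PE hearts against 7.00 and 6.98 in WT untreated hearts, a difference of 0.44 (SE 0.11, 1.36-fold, limma adjusted p = 0.275). The untreated arrays of Col18a1 lay close together, and all 4 PE arrays lay above them. Col26a1 was 0.24 higher (SE 0.09) with overlapping groups. Of the remaining genes, Col23a1, Col10a1, Col28a1, Col7a1, Col13a1, Col25a1 and Col17a1, which include the anchoring fibril chain Col7a1 and the hemidesmosome chain Col17a1, lay between -0.07 and 0.08.

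In WT hearts alone, 42 of the 44 collagen genes had a positive PE difference, against 48.9% of all genes. The 2 WT PE arrays lay above the 2 WT untreated arrays for 33 genes (22.7% of all genes) and below for 0 (23.5%). No gene of the 44 passed the adjusted threshold (0.00502% of all genes did), 16 were higher at an unadjusted limma p under 0.05 (5.99% of all genes) and 0 lower (5.76%), and the median difference was 0.27, or 0.15 without array 3. Without array 4, which leaves array 3 as the only WT PE array, the median was 0.35. The differences with the smallest p were 2.35 for Col3a1 (SE 0.50, 5.08-fold), 2.59 for Col1a1 (SE 0.63, 6.01-fold) and 0.50 for Col26a1 (SE 0.13, 1.41-fold), each with an adjusted p of 0.419 in limma. Col26a1 read 7.70 and 7.28 in WT PE hearts against 7.00 and 6.99 in WT untreated hearts.

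In S105A hearts alone, 27 of the 44 had a positive PE difference, against 43.6% of all genes. The 2 S105A PE arrays lay above the 2 S105A untreated arrays for 19 genes (20.2% of all genes) and below for 3 (25.2%). None passed the adjusted threshold (0% of all genes did), 7 were higher at an unadjusted limma p under 0.05 (3.09% of all genes) and 1, Col9a1, was lower (2.77%). The median difference was 0.05, with 0.02 without array 5 and 0.09 without array 6. Without array 7, 35 of the 44 had a positive difference and the median was 0.08; the FACIT median, -0.01 with all arrays, was then 0.07. The differences with the smallest p were 1.83 for Col3a1 (SE 0.50, 3.57-fold), 2.18 for Col1a1 (SE 0.63, 4.52-fold) and 1.46 for Col6a3 (SE 0.51, 2.74-fold), each with an adjusted p of 0.765 in limma. Col9a1 read 6.14 and 6.23 in S105A PE hearts and 6.44 and 6.36 in S105A untreated hearts, a difference of -0.22 (SE 0.08). Considering each genotype by itself, 19 genes lay higher in PE hearts without overlap in both, against 9.74% of all genes: 7 fibrillar, 3 basement membrane, 3 FACIT and 6 of other types.

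**Figure D3:**
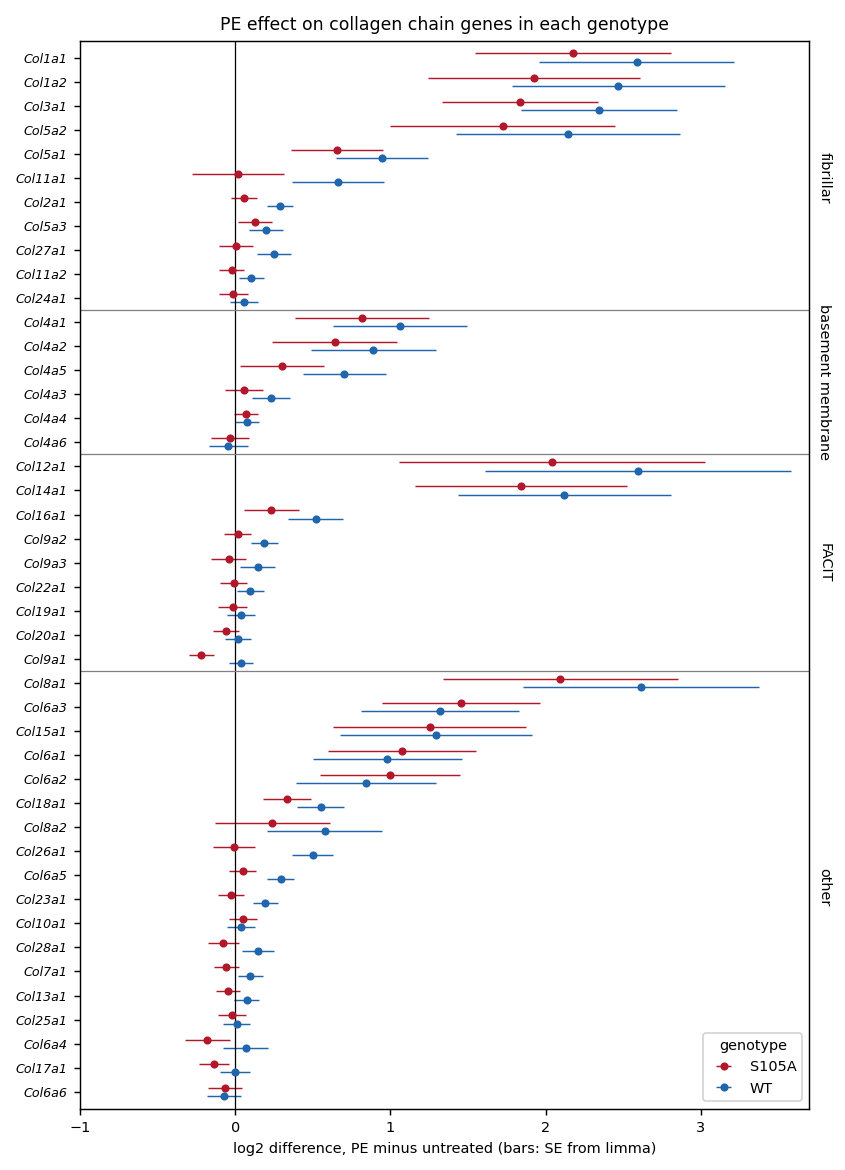
Points are the log2 difference, PE minus untreated, of each collagen chain gene in S105A hearts (red) and WT hearts (blue), with bars of 1 SE from limma, grouped by class. Points of both colours lie far right of 0 for the same upper rows of each class and close to 0 in the lower rows, and the bars of most genes overlap between genotypes.

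The size of the PE difference varied between mice of a group. Array 3 lay above array 4 for 37 of the 44 genes, against 46.8% of all genes, and array 7 above array 8 for 24, against 44.5%. Array 3 was the highest and array 7 the next of all 8 arrays for 20 genes (13% of all genes). For 17 genes (4.62% of all genes) the order was array 3, array 7, then arrays 4 and 8, all above the untreated arrays. Arrays 4 and 8 alone lay above the 4 untreated arrays for 22 genes (9.75% of all genes) and below them for 0 (8.97%). By class these were 8 of 11 fibrillar, 3 of 6 basement membrane, 3 of 9 FACIT and 8 of 18 other genes.

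Without arrays 3 and 7 the averaged PE difference passed an adjusted p of 0.05 in limma for 8 collagen genes, each higher in PE hearts, against 0.687% of all genes called and 0.637% called higher. In that fit the spread comes from the untreated arrays alone, since each PE group is left with 1 array that is assumed to vary like them. With all arrays that assumption did not hold for these 8 genes. The SD of Col1a1 was 0.906 in S105A PE and 1.348 in WT PE hearts, against 0.038 and 0.01 in untreated hearts. The SEs, adjusted p and counts of this fit, here and below, thus leave out the spread between PE mice. Col1a1 was higher by 1.58 (SE 0.06, 3.00-fold), Col3a1 by 1.45 (SE 0.07), Col8a1 by 1.40 (SE 0.12), Col1a2 by 1.33 (SE 0.07), Col14a1 by 1.12 (SE 0.07), Col12a1 by 1.08 (SE 0.07), Col5a2 by 1.03 (SE 0.10) and Col6a3 by 0.74 (SE 0.06). Of the 8, 4 encode fibrillar chains and 2 collagens of the fibril surface. In S105A hearts alone 6 genes were past the threshold (0.15% of all genes called higher) and in WT hearts alone 6 (0.291% called, 0.261% called higher). Col1a1, Col1a2, Col3a1, Col12a1 and Col14a1 were among them in both genotypes, with Col6a3 in S105A hearts and Col8a1 in WT hearts. For every one of the 8 genes the difference without arrays 3 and 7 was smaller than with all arrays. Array 3 was the highest and array 7 the next for each of them, so leaving both out had to lower the difference.

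Other genes with sizeable differences over all arrays had smaller values without arrays 3 and 7 and did not pass the adjusted threshold. Col15a1 was then 0.50 higher (SE 0.10), Col5a1 0.44 (SE 0.07), Col4a1 0.43 (SE 0.13), Col6a1 0.42 (SE 0.06), Col6a2 0.38 (SE 0.10), Col4a2 0.28 (SE 0.11), Col18a1 0.27 (SE 0.06), Col4a5 0.20 (SE 0.09), Col16a1 0.19 (SE 0.07) and Col26a1 0.13 (SE 0.06). Col11a1 and Col8a2 stood at 0.02 (SE 0.07) and -0.03 (SE 0.08). The class medians without those arrays were 0.13 for fibrillar genes, 0.21 for basement membrane genes, 0.08 for FACIT genes and 0.07 for the other types, against -0.0012 over all genes. Of the 44 genes 38 had a positive value in that fit, against 49.5% of all genes.

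**Figure D4:**
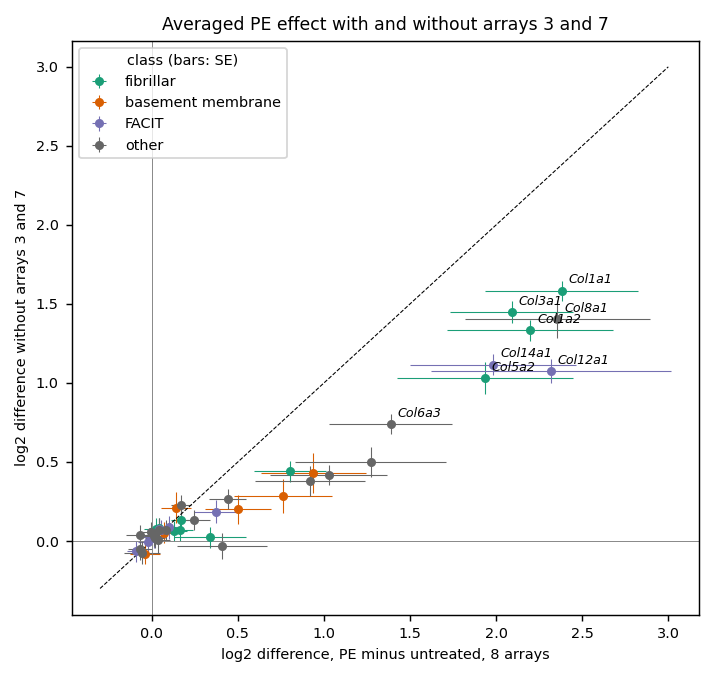
Each point is a collagen chain gene coloured by class; the horizontal axis gives the averaged log2 PE difference over 8 arrays and the vertical axis the same without arrays 3 and 7, with bars of 1 SE. Named points, the 8 genes labelled for the fit without those arrays, lie between 0.74 and 1.58 on the vertical axis. Their place below the dashed line of equal values follows from arrays 3 and 7 being their highest.

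The readings of chains that assemble into one collagen type did not all differ with PE by the same amount within an array. The 6 pairs compared were chosen after the values had been seen, so the differences are given without a test. Col8a2 minus Col8a1, taken within each array and relative to its untreated mean, lay between -2.53 and -1.40 in the 4 PE arrays and between -0.21 and 0.13 in the 4 untreated arrays. The corresponding difference of Col5a2 minus Col5a1 lay between 0.58 and 1.91 in PE arrays and between -0.09 and 0.18 in untreated arrays. Col8a1 and Col5a2 thus had the larger measured PE difference of their pairs in each PE array. Untreated arrays read 6.2 to 6.5 for Col8a2, close to the low-level bound of 6.18, and 8.3 to 8.8 for Col8a1. For type V they read 6.3 to 6.6 for Col5a2 and 7.4 to 7.6 for Col5a1. Whether the probe sets of a pair respond equally at such levels was not tested, and pairs of other genes were not compared. Col6a3 minus Col6a1 was 0.24 to 0.53 in PE arrays and -0.17 to 0.13 in untreated arrays, and Col4a2 minus Col4a1 was -0.21 to -0.14 in PE arrays and -0.04 to 0.05 in untreated arrays. The type I pair, Col1a2 minus Col1a1, overlapped, at -0.27 to -0.05 in PE arrays and -0.06 to 0.08 in untreated arrays. Col6a2 minus Col6a1 overlapped as well, at -0.29 to 0.05 in PE arrays and -0.14 to 0.15 in untreated arrays. Without arrays 3 and 7 the mean of the pair difference was -1.43 for type VIII and 0.59 for type V, against -1.95 and 1.13 with all arrays.

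**Figure D5:**
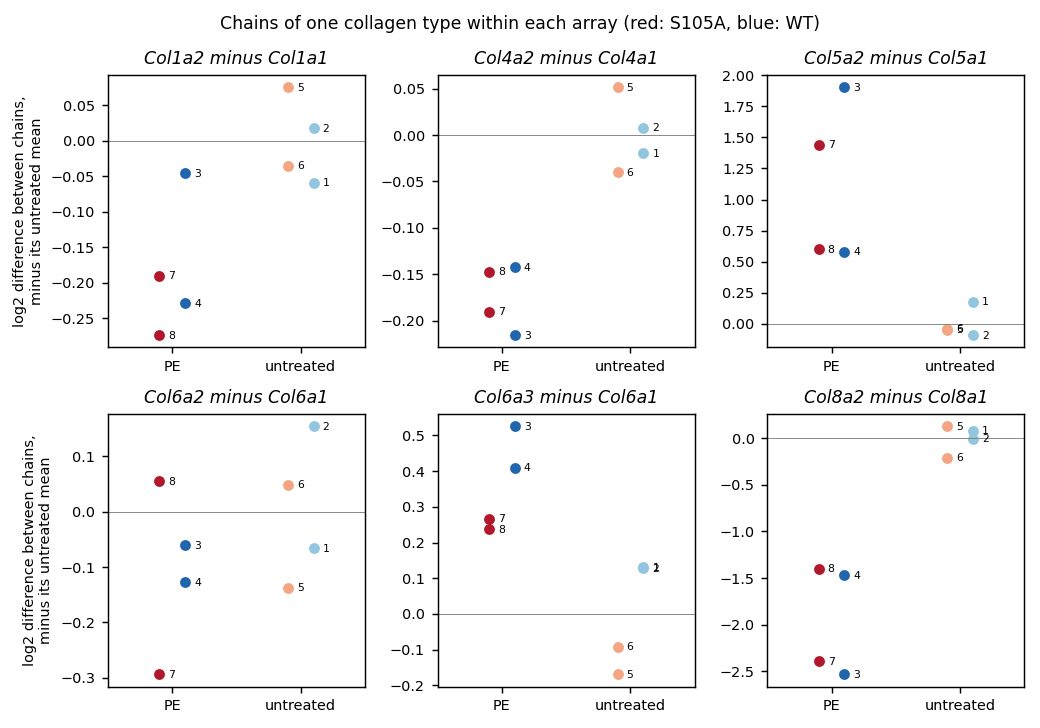
Within each array, the log2 value of one chain minus that of another chain of the same collagen type is plotted relative to its mean in the 4 untreated arrays, with PE arrays left and untreated arrays right, S105A in red and WT in blue, numbered by mouse; vertical scales differ between panels. PE and untreated arrays are separate for the type V and type VIII pairs, for Col6a3 minus Col6a1 and for Col4a2 minus Col4a1, and overlap for the other two pairs.

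Genes that act on collagen after its synthesis were read from lists chosen for their function. Of 20 collagen modifying enzymes and chaperones, 19 were measured; 17 had a positive averaged PE difference, against 44% of all genes, and 9 were higher at an unadjusted limma p under 0.05, against 9.31% of all genes. None passed the adjusted threshold, and the median was 0.52, or 0.18 without arrays 3 and 7. P3h1, a collagen prolyl 3-hydroxylase, was 0.71 higher (SE 0.20), P4hb, a subunit of prolyl 4-hydroxylase, 0.68 (SE 0.21) and Ppib, a peptidyl-prolyl isomerase of the secretory pathway, 0.50 (SE 0.16). Of 16 procollagen proteinases and crosslinking enzymes 14 were measured; 10 had positive and 4 negative differences, and 8 were higher at that unadjusted p, against the same shares of all genes. None passed the adjusted threshold, and the median was 0.48, or 0.24 without arrays 3 and 7. Lox, a lysyl oxidase that starts the crosslinks between collagen molecules, read 10.59 and 8.79 in S105A PE hearts and 6.72 and 6.44 in S105A untreated hearts, and 11.91 and 9.24 in WT PE hearts against 6.48 and 7.27 in WT untreated hearts. Its difference of 3.40 (SE 0.64) exceeded that of every collagen gene, its PE arrays kept the order of arrays 3, 7, 4 and 8, and without arrays 3 and 7 it was 2.29 (SE 0.21). Loxl1, a related oxidase, was 1.46 higher (SE 0.38) and Pcolce2, an enhancer of procollagen C-proteinase, 0.42 (SE 0.10).

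The collagen receptors measured, 9 of 10 listed, all had positive differences, against 44% of all genes, and 4 were higher at the unadjusted p, against 9.31% of all genes. Their median was 0.37, or 0.14 without arrays 3 and 7. Lair1, an inhibitory receptor of immune cells, was 0.60 higher (SE 0.15), Ddr2, a collagen receptor tyrosine kinase of fibroblasts, 0.25 (SE 0.06) and Mrc2, which internalises collagen, 1.35 (SE 0.43). Of 11 genes of collagen degradation 10 were measured, of which 7 had positive differences and 3, Mmp8, Mmp9 and Mmp13, negative ones. At the unadjusted p 5 were higher, against 9.31% of all genes, and the median was 0.54, or 0.28 without arrays 3 and 7. Mmp14, a membrane-bound collagenase, was 1.62 higher (SE 0.48), Ctsk, the collagen-cleaving cathepsin K, 1.496 (SE 0.40) and Mmp2, a gelatinase, 1.03 (SE 0.22). Mmp8 had a value of -0.44 (SE 0.46), with untreated array 2 far above the other 7 arrays. Mrc2 is in both lists and is counted in each, also in the counts that follow. No gene of either list passed the adjusted threshold with all arrays. Without arrays 3 and 7, in the fit that called 0.637% of all genes higher, 4 of the 10 degradation genes and 1 of the 9 receptors passed it, as did 4 of the 14 proteinases and crosslinking enzymes and 1 of the 19 modifying enzymes and chaperones.

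Levels of several cell type markers also differed between PE and untreated hearts. Ddr2 of the receptors is also in the list of 12 fibroblast markers. Of these markers, 11 had a positive averaged PE difference, against 44% of all genes, and 8 were higher at the unadjusted p, against 9.31%. Their median was 0.49, or 0.29 without arrays 3 and 7. Their mean level was 10.29 and 9.82 in S105A PE hearts and 9.09 and 9.13 in S105A untreated hearts, and 10.29 and 9.65 in WT PE hearts against 9.19 and 9.31 in WT untreated hearts. All 10 macrophage markers were higher at the unadjusted p, against 9.31% of all genes, with a median of 0.81, or 0.51 without arrays 3 and 7, and with means of 9.54 and 8.93 in S105A PE hearts and 8.33 and 8.42 in S105A untreated hearts, and 9.87 and 9.11 in WT PE hearts against 8.52 and 8.72 in WT untreated hearts. Of 10 endothelial markers 9 had negative differences, with 1 lower at the unadjusted p, a share near the 7.44% of all genes, and a median of -0.16, or -0.07 without arrays 3 and 7. Of the 10 cardiomyocyte markers, 5 had positive differences and the median was -0.06. Nppa, the precursor of a natriuretic peptide, was 2.28 higher (SE 0.28) and Mybpc3, a myosin-binding protein of the thick filament, 0.36 (SE 0.10), the 2 of that list with an unadjusted p under 0.05. Without arrays 3 and 7 Nppa was 1.85 higher (SE 0.19) and Mybpc3 0.22 (SE 0.07). Both erythroid markers measured, of 6 listed, were lower at the unadjusted p, against 7.44% of all genes, with means of 6.98 and 7.17 in S105A PE hearts and 7.53 and 7.44 in S105A untreated hearts, and 6.45 and 6.84 in WT PE hearts against 7.99 and 7.86 in WT untreated hearts. No marker of these lists passed the adjusted threshold with all arrays, and no marker reads 0 on this scale. The part of these cell types in the collagen differences was not tested.

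The difference between the PE effects of the genotypes, S105A minus WT, was negative for 38 of the 44 collagen genes, against 52.5% of all genes, and positive for 6, against 47.5%, with a median of -0.22 over collagen genes and -0.01 over all genes. No gene passed the adjusted threshold in limma (0% of all genes did), and Col26a1 alone was lower at an unadjusted p under 0.05 (1.52% of all genes; 0 were higher, against 0.903%), with a value of -0.51 (SE 0.19, adjusted p = 0.9998). The size of the median moved with the PE arrays: without array 3 it was -0.01 and 25 genes were negative, without arrays 3 and 7 it was -0.02, also with 25 negative, and without array 8 it was -0.12, with 30 negative. Without array 4 it was -0.35, with 41 negative. With all arrays the 11 fibrillar genes were all negative, with a median of -0.29. The fibrillar median was 0.07 without array 3, with 5 of the 11 negative, and -0.11 without arrays 3 and 7, with 9 negative. It was -0.02 without array 8, with 7 negative, -0.57 without array 7, with 10 negative, and -0.73 without array 4, with 11 negative. The 9 FACIT genes were also all negative with all arrays, with a median of -0.19, which was -0.04 without array 3, with 7 of the 9 negative, and 0.03 without arrays 3 and 7, with 4 negative.

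Between untreated hearts, 31 of the 44 genes had a positive S105A minus WT difference, against 50.9% of all genes, and the median was 0.04, or 0.06 without array 1. The S105A arrays lay above the WT arrays without overlap for 17 genes (21.8% of all genes) and below for 5 (22.7%). None passed the adjusted threshold (0% of all genes did), and Col23a1, a membrane-bound collagen, was the 1 gene higher at an unadjusted limma p under 0.05 (2.43% of all genes), with 0 lower (2.53%). It read 7.27 and 7.30 in S105A untreated hearts against 7.07 and 6.99 in WT untreated hearts, a difference of 0.25 (SE 0.08, limma adjusted p = 0.962). Next by p were Col26a1, 0.26 (SE 0.13), and Col6a4, 0.27 (SE 0.14). The fit uses the same spread of a gene for all groups, so p between untreated hearts also carries the spread between PE mice. For Col1a1 the untreated SDs were 0.038 in S105A and 0.01 in WT hearts, against 0.906 and 1.348 with PE. The order by p and the lack of calls between untreated hearts depend on this.

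Between PE hearts, 38 of the 44 genes had a negative S105A minus WT difference, against 53.1% of all genes, and 6 a positive one, against 46.9%, with a median of -0.13. The S105A PE arrays lay below the WT PE arrays without overlap for 8 genes (13% of all genes) and above for 1 (10.5%). None passed the adjusted threshold (0% of all genes did), and 2, Col9a1 and Col6a5, were lower at an unadjusted limma p under 0.05 (1.43% of all genes), with 0 higher (1.25%). Col9a1 read 6.14 and 6.23 in S105A PE hearts against 6.40 and 6.40 in WT PE hearts, a difference of -0.22 (SE 0.08), and Col6a5 read 6.53 and 6.68 in S105A PE hearts against 6.80 and 6.87 in WT PE hearts, a difference of -0.23 (SE 0.09), each with an adjusted p of 0.989 in limma. Col26a1 followed with -0.25 (SE 0.13). The spread shared by all groups also takes in the untreated mice. For Col26a1 the SDs were 0.019 in S105A PE and 0.294 in WT PE hearts, against 0.023 and 0.007 in untreated hearts. The SEs and p between PE hearts depend on this. The median also moved with the PE arrays. It was 0.05 without array 3, with 16 genes negative, -0.0017 without arrays 3 and 7, with 22 negative, and -0.06 without array 8, with 26 negative. Without array 4 it was -0.26, with 38 negative.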

How the data were processed

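Total RNA of 8 hearts was labelled with biotin and hybridized to 1 Affymetrix array each. The deposited values are log2 levels, for which the submitters' processing notes name RMA without a version. This method subtracts background, equalises the arrays' distributions and summarises probes, so a shift shared by most genes is removed. Of 35557 rows, 21789 had 1 gene symbol, 1621 several and 12147 none in the platform annotation; the first kind gave 19938 genes, by the probe set with the highest mean. All 44 collagen symbols were current in the GRCm38.p6 gene table, which holds 19855 of the genes.

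A model with 4 group means was fitted to all genes with limma (version 3.58.1, under R 4.3.3; 4 residual degrees of freedom), with two-sided p adjusted by Benjamini-Hochberg over all genes within a contrast and a threshold of 0.05. The number of arrays, 2 per group, limits the precision. The titles number 8 individuals, so arrays are separate mice. The averaged PE contrast uses the arrays of both single-genotype contrasts, and the genotype contrasts share arrays with all of them.

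The members, classes and gene lists were chosen with earlier results of these data known. Values were given for 15 fixed collagen genes, and per class for up to 3 with the smallest p and the lowest averaged PE difference. For each other contrast up to 3 with the smallest p were named, and up to 3 genes per pathway list. Col11a1, Col8a2, Col2a1, Col5a3, Mmp8, Mmp9, Mmp13, Nppa, Mybpc3, Cnn1 and Abcc9 were named after their values were seen. The fit was tested on simulated data in which each gene had the same spread in all arrays. The wider spread between PE arrays was thus not covered. Alternatives were a filter on the lowest 40% of genes, means of probe sets, a further quantile normalization, trended robust variances, array weights, only the arrays compared, leaving out each array, and leaving out arrays 3 and 7. The choice of arrays 3 and 7 rests on values of these same data, which include the collagen genes. The count for arrays 4 and 8 alone, the chain pairs and the gene lists without arrays 3 and 7 were added after seeing the data. Figures were drawn with matplotlib 3.10.9.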

Additional observations from a re-analysis of the deposited data

How the results depend on the processing

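The count of collagen genes past an adjusted p of 0.05 in limma was 0 in each of the 6 comparisons with all arrays and under the filter, probe set mean, further quantile normalization, variance and weight alternatives run. Without arrays 3 and 7 it was 8 for the averaged PE effect, 6 in S105A hearts and 6 in WT hearts. With each array left out in turn it was 0 to 21 for the averaged PE effect, 0 to 22 in WT hearts and 0 in S105A hearts; the high counts came without array 4, a fit that called 20.7% and 17.8% of all genes, and no other single array moved them. Between PE hearts the count was 0 to 1, again from the fit without array 4, which called 3.57% of all genes. The median difference in PE effect was -0.353 to -0.0149 with 1 array left out and -0.020 without arrays 3 and 7, and the S105A minus WT median between PE hearts was -0.264 to 0.0464, above 0 without array 3. For the changes in these medians the cause was not tested. Single genes that changed sign were Col24a1 (-6.31e-05 with further quantile normalization, -0.00462 without array 1, -0.0225 without array 8, and -0.0225 to 0.067 over single arrays left out), Col6a6 (0.0394 without arrays 3 and 7) and Col4a6 (0.043 without array 4, 0.00241 without array 7, and -0.121 to 0.043 over single arrays left out). Of the other values for named genes and chain pairs, 888 kept their direction and their side of the threshold, 53 passed it under the alternative alone and 2 moved by more than the spread. Chain pairs have no threshold and were judged by direction and by the spread between arrays. Many gene values could not change direction, since the filter, variance and weight alternatives leave the fitted differences of a gene nearly unchanged. Leaving out an array of the other genotype does the same in a single-genotype contrast. No paired analysis was possible because the mice are numbered 1 to 8 and no number is shared between groups. No detection calls were used, so how far low values stand above background is not known.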

Other observations

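The median averaged PE difference of each remaining marker list lay between -0.09 and 0.06. Over all genes 44% had a positive difference, 9.31% were higher and 7.44% lower at an unadjusted limma p under 0.05, and shares near these are no result about a list. Of 10 smooth muscle and pericyte markers, 5 had a positive difference, 3 were higher and 1 lower at that p, and the median was 0.01, with single genes between -0.73 (Abcc9) and 1.41 (Cnn1). Without arrays 3 and 7 these 2 stood at -0.17 and 0.46. Of 8 cartilage and bone markers measured among 10 listed, 6 were positive, 1 was higher at that p and the median was 0.06. The 8 epicardial and mesothelial markers had a median of -0.06, with 1 higher and 2 lower, and the 5 atrial markers a median of -0.02, with 1 higher. Of 8 T and B lymphocyte markers listed, 7 were measured, with a median of -0.09 and 0 higher or lower. No gene of these lists passed the adjusted threshold.

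Col6a5 and Col6a6 each had a second probe set. The second probe set of Col6a5 read 4.97 and 5.01 in S105A PE hearts and 5.13 and 5.20 in S105A untreated hearts, and 5.40 and 5.01 in WT PE hearts against 4.87 and 5.02 in WT untreated hearts. The second probe set of Col6a6 read 6.39 and 6.50 in S105A PE hearts and 6.78 and 6.73 in S105A untreated hearts, and 6.16 and 6.66 in WT PE hearts against 6.39 and 6.76 in WT untreated hearts. In S105A hearts both of these lay lower with PE without overlap, as did 25.2% of all genes. The probe sets used above for Col6a5 and Col6a6 overlapped there.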
